A study of Mus musculus with 10 samples.

Results

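A set of 10 genes of the glutamatergic neurons of the cerebellum was followed in Snx14-KO mice at 1 year of age, 7 of them transcription factors of the granule cell and unipolar brush cell lineages. The 10 members, out of 55536 mouse genes in the count tables, were chosen by name as known genes of these cells, namely Neurod1, Zic1, Zic2, Pax6, Barhl1, Etv1, Eomes, Cbln1, Reln and Fat2. The choice was made with earlier results of these data known. It was asked whether their levels held in the cerebellum of KO mice and how far they were restricted to the cerebellum as against the cerebral cortex. RNA was sequenced from both tissues of 5 mice, which gave 10 libraries. KO mice, of which there were 2, carried a constitutive frameshift deletion in both copies of Snx14, a sorting nexin of the endoplasmic reticulum, made by CRISPR on a C57BL/6J background and present in every cell of the body. The 3 control mice were 2 Het mice (controls 1 and 2, with 1 copy of the same deletion) and 1 WT mouse (control 3), and the labels name all 3 as controls. No mouse received a treatment according to the labels. The deletion is in all cells from conception on. Because whole tissue was sequenced, fewer cells of a type and less RNA per cell cannot be told apart. Within a tissue each library is 1 mouse, so p-values there measure the spread between mice, of which the KO group has 2. In the comparisons between tissues, the main test took the 2 libraries of a mouse as separate samples.

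Granule cells are small excitatory neurons that make up most of the neurons of the cerebellum, and they send parallel fibres onto the dendrites of Purkinje cells (PCs). They arise from progenitors of the rhombic lip, in which ATOH1 acts, and mature under factors such as NEUROD1, the ZIC proteins, PAX6 and BARHL1. Unipolar brush cells are excitatory interneurons of the granule cell layer that come from the same germinal zone and keep EOMES (TBR2) as adults. Granule cells secrete CBLN1, an organizer of the synapse between parallel fibre and PC, and reelin, the ligand of VLDLR and ApoER2. FAT2 is a large atypical cadherin placed along parallel fibres.

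All 10 members matched 1 entry each of the GENCODE M21 annotation, in build GRCm38. Neurod1 lies on the minus strand of chromosome 2 (79452521 to 79456751), Barhl1 on the minus strand of chromosome 2 (28907679 to 28916668) and Pax6 on the plus strand of chromosome 2 (105668900 to 105697364). Zic1 lies on the minus strand of chromosome 9 (91358058 to 91365810), Eomes on the plus strand of chromosome 9 (118478212 to 118486132) and Zic2 on the plus strand of chromosome 14 (122475435 to 122479852). The others are Etv1 on the plus strand of chromosome 12 (38779380 to 38870484), Fat2 on the minus strand of chromosome 11 (55250609 to 55336564), Cbln1 on the minus strand of chromosome 8 (87468405 to 87472609) and Reln on the minus strand of chromosome 5 (21884454 to 22344702). Of the exonic bases of Neurod1, 13% also lie in an exon of another gene (Cerkl on the same strand and Gm26755 on the opposite strand), so its counts can hold reads of those genes. For Eomes this share was 2.84%, for Zic1 1.05% and for Reln 1.04%.

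The promoters of Barhl1 and Eomes are shown because, across the 10 libraries, Barhl1 was the gene whose level followed that of Eomes most closely, and both were near the limit of detection in cortex. That likeness is set by the difference between cerebellum and cortex. Within the 5 cerebella the closest genes to Eomes were Doc2g, Ssh2 and Hdgf, and regulation in common was not tested. RefSeq (build GRCm38.p6) gave the 250 bases before 11 start sites of 8 members. Capitals mark the letters CAGCTG, an E-box of the kind bound by bHLH factors such as NEUROD1.

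Barhl1 first start, chr2:28916669-28916918, minus strand: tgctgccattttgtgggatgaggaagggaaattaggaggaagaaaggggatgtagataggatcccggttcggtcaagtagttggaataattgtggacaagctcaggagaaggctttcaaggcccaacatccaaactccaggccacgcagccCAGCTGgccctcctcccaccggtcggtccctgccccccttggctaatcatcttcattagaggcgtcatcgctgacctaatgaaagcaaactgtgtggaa
Barhl1 second start, chr2:28912496-28912745, minus strand: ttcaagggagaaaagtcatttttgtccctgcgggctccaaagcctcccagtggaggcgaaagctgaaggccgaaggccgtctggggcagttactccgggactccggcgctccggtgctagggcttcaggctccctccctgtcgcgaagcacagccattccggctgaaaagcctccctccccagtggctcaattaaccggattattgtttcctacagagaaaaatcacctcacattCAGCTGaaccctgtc
Eomes start, chr9:118477939-118478188, plus strand: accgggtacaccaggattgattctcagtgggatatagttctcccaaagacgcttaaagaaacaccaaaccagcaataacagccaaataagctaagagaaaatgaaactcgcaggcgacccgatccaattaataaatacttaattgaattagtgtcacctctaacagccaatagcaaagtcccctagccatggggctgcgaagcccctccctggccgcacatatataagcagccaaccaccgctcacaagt

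Motifs were searched on both strands, the E-boxes CAGATG and CAGCTG and the letters CAGCAGG, which occur in binding sites of ZIC proteins. CAGCTG stood once in each Barhl1 window, from base 152 and base 236 counted from the 5′ end. CAGATG stood once, in the window of the second start of Etv1. An E-box was thus present before a start of 2 of 8 members, or in 3 of 11 windows, while 25.5% of all 32851 windows of this length held one. CAGATG alone was found in 14.4% and CAGCTG alone in 13% of all windows. CAGCAGG was found in 0 of the 11 windows and in 8.44% of all windows. No matches overlapped in the windows of the members.

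Library totals were 16088310 to 22975355 gene counts. Snx14 was at 39.9 and 42.8 CPM in Het cerebella, 73.2 CPM in the WT cerebellum and 15.5 and 17.4 CPM in KO cerebella, and KO libraries were likewise below all controls in cortex. CPM are gene counts divided by the scaled library size, with TMM scaling over all 10 libraries, so they share 1 scale. Some libraries stood apart in tissue composition. The summed level of 7 choroid plexus genes was 60.6 CPM in the cerebellum of KO 1 and 1203 to 3414 CPM in the other 4 cerebella. That of 10 striatal genes was 2025, 4491 and 1840 CPM in the cortices of controls 1 to 3. It was 1148 and 609 CPM in those of KO 1 and KO 2, below all controls. In KO cortices 10 of these 10 genes were lower, with a median log2 change of -1.72 and 0 called. The part of this difference in the cortex values of the members was not tested. The summed level of 18 PC genes was 10870 to 12800 CPM in control cerebella and 5656 and 5519 CPM in KO cerebella, with 17 of the 18 called lower. The tissue labels held for the 12 cortical excitatory neuron genes, whose sum was 154 to 179 CPM in cerebella and 946 to 1105 CPM in cortices. The ages, sources and preparation stated in the labels name no batch.

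In the cerebellum the members differed little between KO and control mice. None of the 10 was called by the quasi-likelihood test of edgeR, and 1.55% of the 19447 genes tested were (0.514% called higher and 1.04% called lower). With so low a share over all genes, 0 calls among 10 members does not set them apart. Since the members were chosen with earlier results of these data known, their stability is a description. A call required a log2 fold change of more than 0.5 in either direction and a p below 0.05 after Benjamini-Hochberg adjustment. Of the members, 9 had a 95% interval that lay within 0.5 of 0 on the log2 scale, the size at which a gene could be called, against 53.1% of all genes tested. The width of an interval depends on a gene's counts, and these shares were not matched for level. The median log2 change of the members was 0.08, and 8 were higher and 2 lower in KO mice. Over all genes tested the median was 0.0009 and 50.2% were higher. By absolute value the median log2 change was 0.10 for the members and 0.13 for all genes tested. Leaving out each library in turn, the other scalings and filters, DESeq2 and a replicate block gave adjusted p-values of 0.328 or more for the 9 members other than Eomes.

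**Figure D1:**
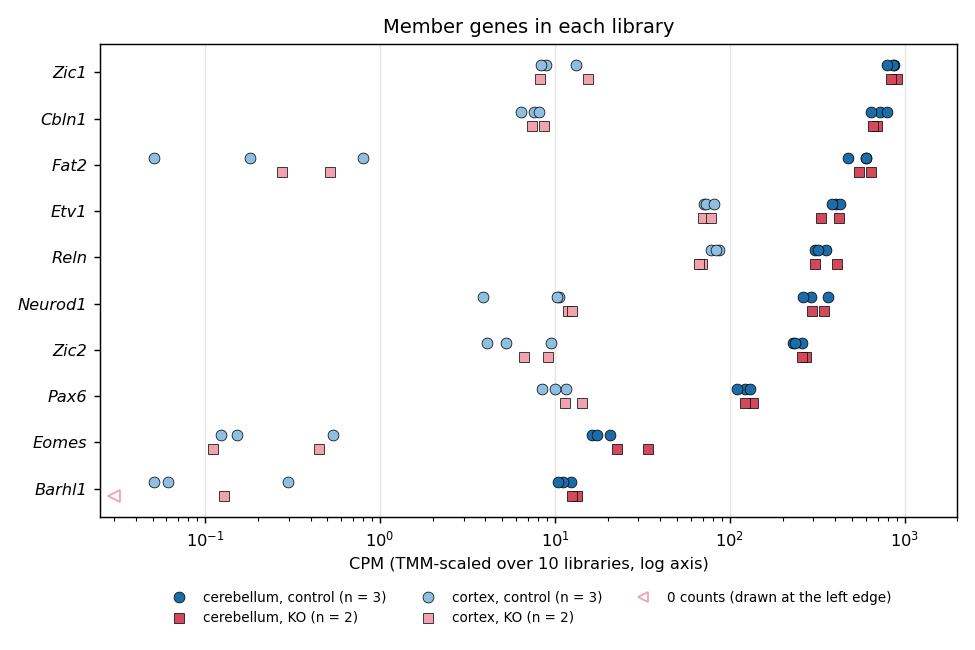
Level of each member in each of the 10 libraries, as TMM-scaled CPM on a log axis, with circles for control mice (n = 3 per tissue), squares for KO mice (n = 2 per tissue) and an open triangle for a library with 0 counts. The cerebellum values of every member lie above all of its cortex values, and the KO and control values of the cerebellum lie close together except for Eomes.

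The granule cell factors gave the following values. Neurod1, a bHLH factor needed for granule cell differentiation, was at 290.7, 365.3 and 260.4 CPM in the cerebella of controls 1 to 3 and at 346.5 and 293.6 CPM in KO 1 and KO 2. Both KO values lay between the lowest and highest control, and the log2 change was 0.06 (95% interval -0.26 to 0.38, adjusted p = 0.920 by edgeR). Zic1, a zinc finger factor of granule cell progenitors and adult granule cells, was at 868.4, 860.5 and 786.9 CPM in controls and at 897.8 and 829.0 CPM in KO mice. Its log2 change was 0.03 (-0.17 to 0.24, adjusted p = 0.927 by edgeR), and the groups overlapped. Zic2, the paralog of Zic1 in the same family, was at 257.8, 229.1 and 235.3 CPM in controls and at 271.4 and 257.7 CPM in KO mice. KO 2 was level with control 1 and above the other controls, and the log2 change was 0.13 (-0.04 to 0.30, adjusted p = 0.529 by edgeR).

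Pax6, a paired-box factor that acts in granule cell migration and axon growth, was at 122.7, 129.5 and 110.3 CPM in controls and at 135.6 and 121.5 CPM in KO mice. Only KO 1 was above all controls, and the log2 change was 0.08 (-0.11 to 0.27, adjusted p = 0.772 by edgeR). Barhl1, a homeobox factor of granule cell survival, was at 12.3, 11.1 and 10.4 CPM in controls and at 13.3 and 12.5 CPM in KO mice. Both KO values were above all controls, and the log2 change was 0.19 (-0.11 to 0.49, adjusted p = 0.631 by edgeR). Etv1, an ETS factor of mature granule cells, was at 403.3, 424.8 and 381.5 CPM in controls and at 418.3 and 332.8 CPM in KO mice. KO 2 was the lowest library and KO 1 lay between the controls, with a log2 change of -0.11 (-0.35 to 0.13, adjusted p = 0.746 by edgeR).

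Of the genes for secreted and surface proteins, Cbln1, the synaptic organizer of parallel fibre synapses, was at 716.9, 795.3 and 638.3 CPM in controls and at 696.5 and 658.6 CPM in KO mice. The KO values lay inside the control range, with a log2 change of -0.09 (-0.33 to 0.15, adjusted p = 0.809 by edgeR). Reln, the extracellular ligand reelin, was at 355.6, 304.6 and 318.7 CPM in controls and at 407.2 and 304.8 CPM in KO mice. KO 1 was the highest library and KO 2 was level with the lowest control, with a log2 change of 0.12 (-0.16 to 0.40, adjusted p = 0.777 by edgeR). Fat2, the cadherin of parallel fibres, was at 602.0, 598.9 and 475.6 CPM in controls and at 642.3 and 546.0 CPM in KO mice. The WT control was the lowest of the 5 libraries, and the log2 change was 0.08 (-0.20 to 0.36, adjusted p = 0.862 by edgeR).

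Eomes, the T-box factor that unipolar brush cells keep as adults, had the largest change among the members and is the exception to the narrow intervals. It was at 20.5, 16.3 and 17.3 CPM in controls and at 34.1 and 22.6 CPM in KO mice, so both KO libraries were above all controls. The log2 change was 0.64 (SE 0.176, 95% interval 0.24 to 1.04), with an unadjusted p of 0.00615 and an adjusted p of 0.139 by edgeR, which missed the threshold. DESeq2 called it at the same log2 change of 0.64 (adjusted p = 0.0252), where 2.35% of genes tested were called by that tool. Without KO 1 the log2 change was 0.31 (adjusted p = 0.539 by edgeR), and without KO 2 it was 0.91 (adjusted p = 0.0317), so the size of the difference rests largely on KO 1. Eomes also marks projection neurons of the olfactory bulb. The summed level of 6 olfactory bulb genes was 18.8 to 28.3 CPM in control and 26.0 and 25.2 CPM in KO cerebella. Most of that sum was Th, at 18.8, 11.3 and 20.4 CPM in controls and at 14.4 and 15.4 CPM in KO mice. Within that list Tbx21 was at 0 to 0.083 CPM in the 5 cerebella, and Doc2g was at 8.35, 7.30 and 7.47 CPM in controls and at 10.9 and 8.81 CPM in KO mice (log2 change 0.34, -0.01 to 0.69). Of the exonic bases of Doc2g, 63.5% also lie in Gm49405 on the same strand, so its counts can hold reads of that gene. The part of such cells in the Eomes values was not tested.

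**Figure D2:**
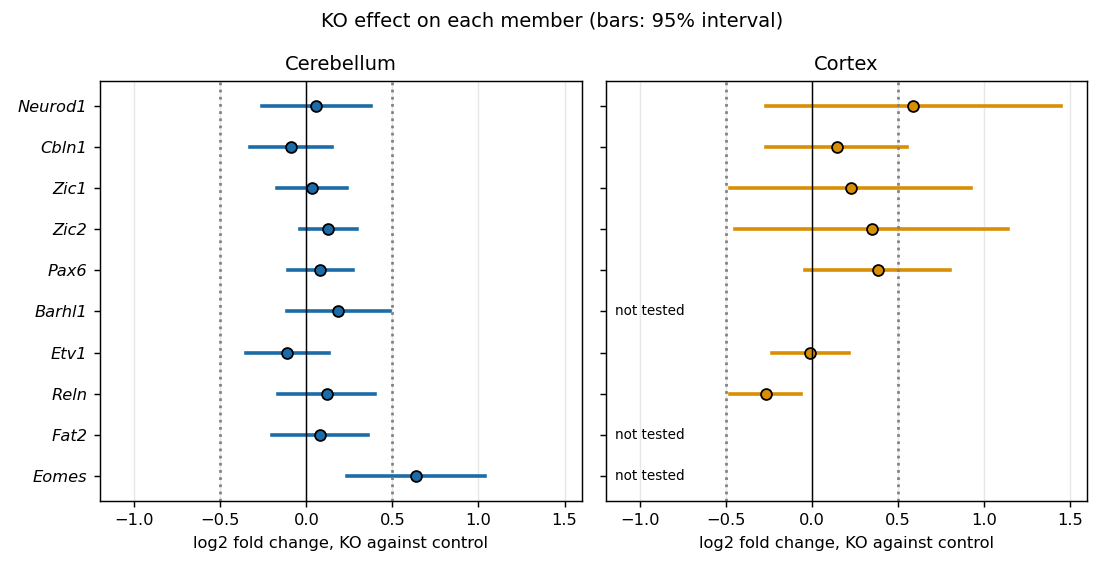
Log2 fold change of each member in KO against control mice, cerebellum at left and cortex at right, with points for the edgeR estimate, bars for the 95% interval and dotted lines at 0.5 on either side of 0. In cerebellum 9 of 10 intervals lie between the dotted lines and that of Eomes runs from 0.24 to 1.04, while in cortex the intervals are wider for 5 of the 7 tested members, not for Reln and Etv1, and 3 members were too low to test.

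KO 1 and KO 2 differed from each other for the members as a whole. KO 1 was above KO 2 for 10 of 10 members in cerebellum, where KO 1 was above KO 2 for 50.9% of all genes tested. The ratio of KO 1 to KO 2 ran from 1.05 for Zic2 to 1.34 for Reln and 1.51 for Eomes, with a median of 1.004 over all genes tested. The cerebellum library of KO 1 is the one with few choroid plexus counts. The cerebellum library of KO 2 stood apart as well. Lamp5 was at 14.5 CPM there and at 0.878 to 2.36 CPM in the other cerebella, and Sst at 7.78 CPM and at 1.25 to 2.94 CPM. Meis2 and Cbln4, given below, were also highest in that library. The cerebellum library of KO 1 held 17732506 gene counts and that of KO 2 22975355. The part of these differences in the members' values was not tested. Among controls, the WT library was the lowest of the 3 for 7 of 10 members, against 33% of all genes tested. Only 2 members, Barhl1 and Eomes, did not overlap between KO and control cerebella, against 30% of all genes tested.

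**Figure D3:**
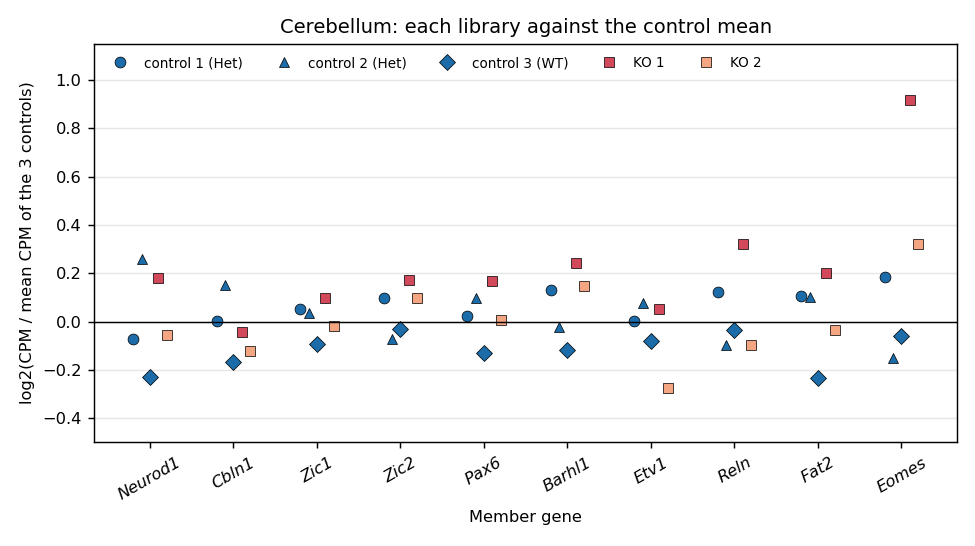
Level of each member in each cerebellum library as the log2 ratio to the mean CPM of the 3 controls, with blue symbols for controls 1, 2 (Het) and 3 (WT) and squares for the KO mice. KO 1 lies above KO 2 for all 10 members, and Eomes in KO 1, at 0.92, is the point farthest from the control mean.

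Other granule cell genes were read from a list of 20. In cerebellum 0 of the 20 were called in either direction, 12 were higher and 8 lower in KO mice, and the median log2 change was 0.03. Gabra6, the GABA-A receptor subunit that defines mature granule cells, was at 636.5, 715.5 and 644.5 CPM in controls and at 654.4 and 518.4 CPM in KO mice (log2 change -0.19, -0.45 to 0.07). Cbln3, the granule cell partner of Cbln1, was at 1218, 1292 and 1068 CPM in controls and at 1273 and 1059 CPM in KO mice, with a log2 change of -0.04. Of the ZIC family outside the members, Zic4 had a log2 change of 0.03 and Zic5 of 0.13, and neither was called. Of the 20 genes, 17 had a 95% interval within 0.5 of 0. Meis2, at 2.94 to 3.86 CPM in controls, was at 3.40 CPM in KO 1 and 17.9 CPM in KO 2, so that its log2 change of 1.69 (adjusted p = 0.207 by edgeR) came from 1 library. Factors and signals of the lineage's progenitors were low or showed no common direction. Atoh1 had 0 counts in all 5 cerebella, and of the 12 tested genes of a list of 14, Gli1, a target of Sonic hedgehog signalling that is also expressed by Bergmann glia, was the 1 called. Gli1 was at 18.0, 14.5 and 15.5 CPM in controls and at 9.16 and 10.5 CPM in KO mice and fell by 0.71 on the log2 scale (adjusted p = 0.0467 by edgeR). That call was lost without either KO mouse (adjusted p = 0.213 and 0.106), without control 1 (0.202) or control 3 (0.144), and without scaling factors (0.0555). Of the 6 relatives and partners of Fat2 in the Fat and Dachsous family, only Dchs1, a protocadherin and ligand of Fat4, was called. It was at 15.6, 11.1 and 14.4 CPM in controls and at 23.1 and 25.5 CPM in KO mice and rose by 0.82 on the log2 scale (adjusted p = 0.0292 by edgeR), a call that was lost without KO 1 (adjusted p = 0.0892), KO 2 (0.157), control 1 (0.0644) or control 3 (0.101). The summed level of 10 meninges and fibroblast genes was 675 to 1167 CPM in control and 1412 and 1816 CPM in KO cerebella, and its part in Dchs1 and in the Zic genes, which meninges also express, was not tested.

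Other genes of unipolar brush cells were read as well. Plcb4, a phospholipase gene that PCs also express, was at 346.5 to 384.8 CPM in controls and at 263.3 CPM in KO 2. Both KO libraries were below all controls, with a log2 change of -0.37 (95% interval -0.56 to -0.18, adjusted p = 0.0744 by edgeR), and the listed PC genes were lower in KO cerebella as given above. Calb2 (calretinin), which marks a subtype of unipolar brush cells and granule cells, had a log2 change of -0.25 (95% interval -0.68 to 0.18), which was -0.04 without control 2 and -0.43 without control 3. Plcb1, a related phospholipase gene of the list, was at 108.3, 79.9 and 107.3 CPM in controls and at 131.9 and 122.9 CPM in KO mice, a log2 change of 0.36 (0.09 to 0.64) at an adjusted p of 0.228 by edgeR. Sln was low at 1.66 to 3.51 CPM (36 to 73 counts) and had a log2 change of 0.63 (adjusted p = 0.296 by edgeR). The rhombic lip factors Lmx1a and Otx2 had log2 changes of 0.44 and 0.23, with intervals that covered 0. Their direction rested on 1 library, since leaving out KO 2 gave -0.40 for Lmx1a and -0.22 for Otx2, and leaving out control 2 gave 0.04 and 0.0078. Both are also expressed in choroid plexus, whose genes were low in the cerebellum of KO 1, and the part of that tissue was not tested.

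The relatives of Cbln1 and the pathway of Reln were read next. Cbln4 was at 0.693 to 1.12 CPM in controls, 1.04 CPM in KO 1 and 5.42 CPM in KO 2. Of 10 genes of the reelin pathway, 0 were called, 4 were higher and 6 lower, and the median log2 change was -0.05. The highest log2 change in the list was 0.11. The reelin receptors Lrp8 (ApoER2) and Vldlr had log2 changes of -0.43 (adjusted p = 0.118 by edgeR) and -0.21 (adjusted p = 0.163 by edgeR). Their groups did not overlap, which held for 30% of all genes tested. Dab1, the adaptor bound by both receptors, had -0.26 (adjusted p = 0.314 by edgeR).

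**Figure D4:**
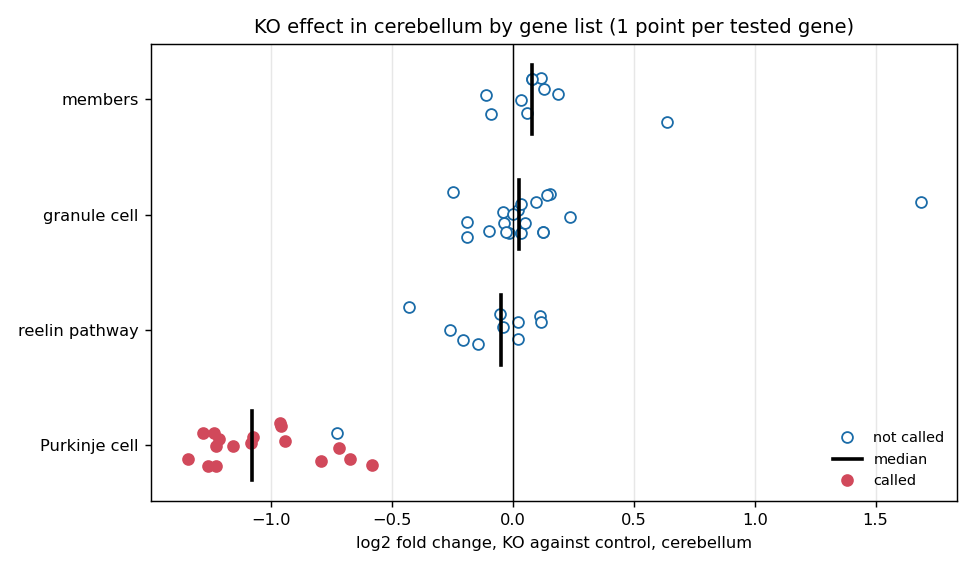
Log2 fold change of every tested gene in KO against control cerebella for the members and 3 gene lists, with filled red points for called genes, open points for the others and a black bar for the list's median. The members, the granule cell genes and the reelin pathway genes lie around 0, apart from Eomes at 0.64 and Meis2 at 1.69, with none called, and 17 of 18 PC genes are called lower.

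In cortex, where the members are low, 7 of 10 could be tested and none was called, in a comparison where edgeR called 0% of 19202 genes (1139 genes had an unadjusted p under 0.05, and DESeq2 called 49, or 0.273%). Reln, made in cortex by GABAergic interneurons, was at 86.3, 77.7 and 83.8 CPM in controls and at 69.1 and 66.4 CPM in KO mice. Both KO libraries were below all controls, and the log2 change was -0.27 (95% interval -0.48 to -0.06), with an unadjusted p of 0.0166 and an adjusted p of 0.768 by edgeR. Over all alternatives its log2 change stayed between -0.31 and -0.24, with adjusted p-values from 0.0533 to 0.999. The summed level of a list of 9 interneuron genes was 1018 to 1034 CPM in controls and 912 and 917 CPM in KO cortices, also with no overlap. That sum was made up mostly of the general GABAergic genes Gad1 and Gad2 and of Sst and Lamp5, while over the list 5 of 9 genes were higher and 4 lower in KO mice with a median log2 change of 0.13. The part of this sum, and of the striatal genes that were lower in KO cortices, in the Reln values was not tested.

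Neurod1 in cortex was at 10.5, 3.90 and 10.3 CPM in controls and at 11.8 and 12.5 CPM in KO mice. The KO values were above all controls, but control 2, the library with the high striatal sum, stood apart at the low end. The log2 change was 0.59 (-0.27 to 1.44, adjusted p = 0.886 by edgeR) and 0.24 without control 2. Reln and Neurod1 were the 2 of the 7 tested members whose groups did not overlap, against 24.7% of all genes tested.

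Zic1 in cortex was at 13.2, 8.86 and 8.34 CPM in controls and at 8.17 and 15.4 CPM in KO mice, and Zic2 at 9.46, 4.10 and 5.28 CPM and at 6.68 and 9.12 CPM. Both genes were highest in control 1 and KO 2, and the groups overlapped (log2 changes 0.22 and 0.35, intervals -0.47 to 0.92 and -0.45 to 1.14). The meninges and fibroblast sum was 531, 210 and 318 CPM in control cortices and 596 and 737 CPM in KO cortices, and its part in the Zic values was not tested. Pax6 was at 11.5, 8.46 and 9.94 CPM in controls and at 11.4 and 14.3 CPM in KO mice (log2 change 0.38, -0.04 to 0.80, adjusted p = 0.867 by edgeR). Cbln1 was at 6.38 to 8.10 CPM in controls and at 8.61 and 7.39 CPM in KO mice (log2 change 0.14, -0.27 to 0.55). Etv1, which in cortex marks layer 5 projection neurons, was at 70.7, 73.4 and 81.0 CPM in controls and at 69.7 and 77.9 CPM in KO mice, a log2 change of -0.01 with an interval of -0.24 to 0.22. Only Etv1 and Reln had an interval within 0.5 of 0 in cortex, where 46.1% of all genes tested had one.

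All 10 members were higher in cerebellum than in cortex, in control mice and in KO mice. In control mice 10 of 10 were called higher, against 19.2% of the 20614 genes tested, and in KO mice 10 of 10, against 17.4%. The groups did not overlap for any member. Since the members were chosen as cerebellar genes, the direction, the calls and the lack of overlap follow from that choice and are a check of the tissues. Fat2, Eomes and Barhl1, too low to test within cortex, passed the filter of this fit through their cerebellum counts. The sizes are what the comparison adds.

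The sizes covered a wide range. Reln and Etv1, which cortical neurons are known to express, differed least, with log2 differences in control mice of 1.98 (SE 0.109) and 2.43 (SE 0.102). Pax6 followed at 3.60 (SE 0.125), and then Neurod1 at 5.23 (SE 0.289) and Zic2 at 5.27 (SE 0.232). The other members were Eomes at 6.05 (SE 0.384), Barhl1 at 6.34 (SE 0.382), Zic1 at 6.37 (SE 0.242), Cbln1 at 6.61 (SE 0.135) and Fat2 at 10.73 (SE 0.337). All of these had edgeR adjusted p-values of 2.024e-07 or less. Neighbours in this order had overlapping 95% intervals, except for Etv1 against Pax6, Pax6 against Neurod1 and Cbln1 against Fat2, whose interval was 9.98 to 11.47. In KO mice the log2 differences were 2.35 for Etv1, 2.39 for Reln, 3.33 for Pax6, 4.72 for Neurod1, 5.07 for Zic2, 6.20 for Zic1, 6.40 for Cbln1, 6.69 for Eomes, 7.61 for Barhl1 and 10.56 for Fat2.

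**Figure D5:**
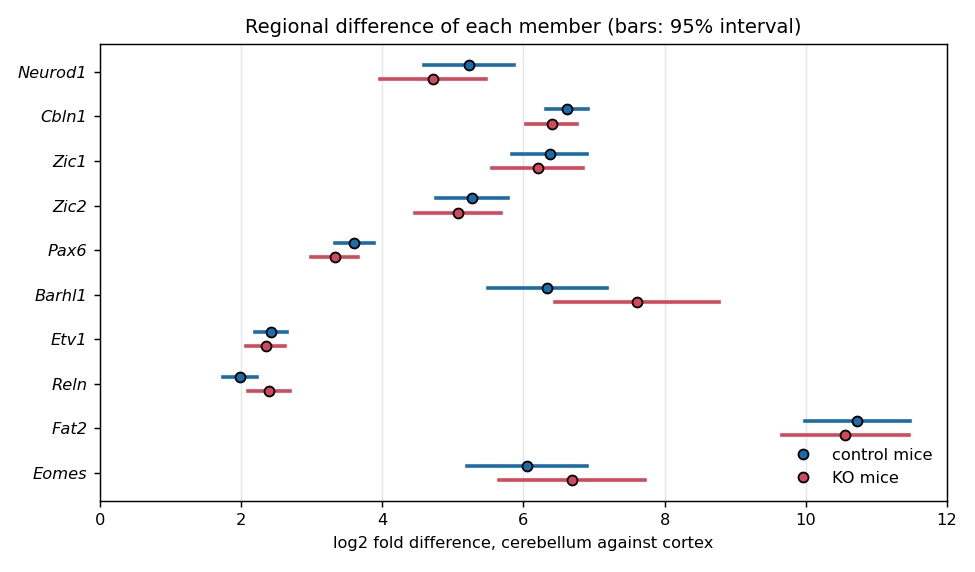
Log2 difference of each member between cerebellum and cortex, blue for control mice (n = 3 per tissue) and red for KO mice (n = 2 per tissue), with points for the edgeR estimate and bars for the 95% interval. All intervals lie above 0, from about 2 for Reln and Etv1 to above 10 for Fat2, and the control and KO intervals overlap for every member.

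Fat2, Eomes and Barhl1 were close to the limit of detection in cortex, where a fitted fold depends on few counts. Fat2 had 17 counts summed over the 3 control cortices and 13 over the 2 KO cortices, against 35216 and 24902 counts in cerebella. The control cortices 1 to 3 held 3, 1 and 13 of these counts, so most came from the WT library. Over the alternatives the log2 difference of Fat2 in control mice ran from 10.09 to 12.33. The Fat2 ratio of cerebellum to cortex, each scaled for library size, was 1742 in control mice (95% counting interval 1088 to 2990) and 1522 in KO mice (890 to 2859). Eomes had 14 and 9 cortex counts, and its ratio was 68.0 (40.4 to 125) in control and 103 (54.1 to 226) in KO mice. Barhl1 had 7 and 2 cortex counts, and its ratio was 85.0 (41.1 to 212) in control and 216 (59.5 to 1789) in KO mice. The KO cortex with 0 Barhl1 counts was that of KO 1. These intervals cover counting error only. In the list of 20 granule cell genes, Gabra6 (log2 difference 11.07) and Cbln3 (10.68) were of the same order as Fat2, while Slc17a7 (-1.68), the vesicular glutamate transporter that cortical excitatory neurons share, and Meis2 (-5.71) were higher in cortex.

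Per length, the order of the members was the same in KO and control cerebella. In TPM, which divides counts by exonic length and rescales each library to a fixed sum, the control medians were 789 for Cbln1, 476 for Zic1, 356 for Neurod1, 267 for Zic2, 130 for Fat2, 101 for Etv1, 44.0 for Reln, 34.9 for Pax6, 13.7 for Eomes and 8.95 for Barhl1. The KO medians were 732, 498, 385, 301, 134, 92.6, 49.2, 36.1, 22.4 and 10.8 in the same order. No neighbours in this order overlapped in the range of their libraries, in either group. In control cortices the order was another, led by Etv1 at 15.2 TPM, with Neurod1 (11.0 TPM) and Reln (10.3 TPM) next and overlapping, then Cbln1, Zic2 and Zic1 (7.10, 5.35 and 4.28 TPM, neighbours overlapping) and Pax6 at 2.48 TPM. Eomes, Barhl1 and Fat2 were at medians of 0.0949, 0.0459 and 0.0354 TPM there, with overlapping ranges.

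The KO effect was then compared between cerebellum and cortex, and 0 of 10 members passed this test, for which 0.102% of the 20614 genes tested passed an adjusted p of 0.05 by edgeR (21 genes, and 128 with the mouse as a block). Reln came nearest, with a difference of 0.41 on the log2 scale (cerebellum minus cortex, 95% interval 0.04 to 0.78), an unadjusted p of 0.0328 and an adjusted p of 0.524. For Eomes the difference was 0.64 with an interval of -1.17 to 2.44, so that a difference was not detectable at its cortex depth. The intervals were as wide for Barhl1 (1.27, -1.03 to 3.58) and Fat2 (-0.16, -1.95 to 1.62). Etv1 had the narrowest interval, -0.42 to 0.26, around a difference of -0.08.

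The genes whose level followed each member most closely over the 10 libraries, by Pearson's r of log2 CPM among genes with a mean of at least 1 CPM, were in part members or other granule cell genes. These r values are set by the difference between the 2 tissues, which the 10 libraries share, and are descriptions. Fat2 went with Patj (r = 0.9996), Cbln3 (0.9993) and Gabra6 (0.9985), and Etv1 with Prune2 (0.9986), Ppfia4 (0.9982) and Gabra6 (0.9981). Zic1 went with Ntn4 (0.9989), Barhl1 (0.998) and Kank2 (0.998), and Zic2 with Ntn4 (0.9984), Zic4 (0.998) and Pax6 (0.9979). Cbln1 went with Cnpy1 (0.9989), Pax6 with Kank2 (0.999) and Zic5 (0.9986), and Reln with Kif26b (0.9993). Eomes was led by Barhl1 (0.9964), Barhl1 by Zic1 (0.998) and Neurod1 by Tmem266 (0.9974). Within the 5 cerebella the closest genes were others, such as Doc2g for Eomes (0.9984) and Ank3 for Reln (0.9989), and r values over 5 libraries are weak descriptions.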

How the data were processed

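RNA of cerebellum and cortex of 5 mice was measured in 10 libraries. Each library has 1 deposited table of unnormalized read-pair counts by gene, which the authors made with STAR on GRCm38 and, per the file headers, featureCounts 2.0.1 over exons, without strand and with a pair counted for each gene it overlapped. The submitters' processing notes name DESeq2 1.38.3 for testing. Of 81881 entries, the 55536 mouse genes were used. The other 26345 entries, spike-ins and entries with numeric identifiers, held 0.160% to 0.926% of a library's counts and were left out. Libraries within a group came from different mice and differed beyond counting noise, so none were merged.

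Here, counts were tested with edgeR 4.0.16 (quasi-likelihood F test, filterByExpr with a minimum of 10, TMM) in R 4.3.3, with genes called at a log2 fold change over 0.5 in either direction and an adjusted p below 0.05 (tissue difference of the KO effect: adjusted p only). KO and control were compared within each tissue, and tissues in 1 fit of 4 groups. SEs and 95% intervals come from the F statistic. The steps were run on simulated counts with known changes, drawn with a common spread for all genes and without pairing by mouse. That setting lacks the gene-specific spread and the tissue composition of these libraries, so it does not show how the intervals perform here. DESeq2 1.42.0, other scalings and filters, a replicate block and leaving out each library (within a tissue) or each mouse (across tissues) were alternatives. The tissues of 1 mouse are paired by animal (r of deviations 0.164 to 0.37). The main fit across tissues did not use this pairing, and its replicate block, on the mouse, did. TPM used the exonic lengths of the tables, and promoter windows came from RefSeq. The members and all gene lists were chosen with earlier results of these data known. All 10 members are named, any gene of the partner, granule cell and unipolar brush cell lists may be, of the other lists at most 2 genes in each direction, and for likeness the 3 closest genes. Some listed genes are not reported here. The depth of 16088310 to 22975355 gene counts leaves Barhl1, Eomes and Fat2 untested in cortex. Intervals of ratios cover counting error only.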

Additional observations from a re-analysis of the deposited data

How the results depend on the processing

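For the members, all 120 alternative values of the cerebellum against cortex differences in control mice and all 120 in KO mice kept their direction and call. Of the KO effects in cerebellum 95 of 110 did, in cortex 72 of 77, and of the differences between tissues 102 of 110. Eomes in cerebellum was the 1 member called in 3 alternatives, DESeq2 (0.64), no filter on low counts (0.63) and without KO 2 (0.91), so 0 to 1 members were called when a library was left out (log2 change 0.31 to 0.91), 1 by DESeq2 and 1 without the filter. The fit without a filter had infinite prior degrees of freedom, and its p-values are less reliable. Small changes turned direction. With the replicate block in cerebellum, Neurod1 was at -0.039, Zic1 at -0.010 and Fat2 at -0.027, and in cortex Etv1 at 0.045 (0.00638 without scaling factors). When a library was left out, cerebellum values ran from -0.067 to 0.21 for Neurod1, -0.026 to 0.085 for Zic1, -0.043 to 0.19 for Fat2, -0.0015 to 0.15 for Pax6, -0.11 to 0.31 for Reln and -0.29 to 0.039 for Etv1. Cortex values ran from -0.086 to 0.061 for Etv1 and -0.29 to 0.61 for Zic1. For the differences between tissues a mouse was left out with both of its libraries. These differences ran from -0.43 to 2.14 for Eomes, -1.77 to 0.43 for Fat2, -0.63 to 0.41 for Zic1, -0.34 to 0.16 for Etv1 and -0.57 to 0.072 for Zic2. None of these passed the test.

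Over all genes, 302 were called in cerebellum, against 842 without the filter, 181 with the replicate block and 133 to 400 when a library was left out (133 without control 1, 179 without control 3, 174 without KO 1). In cortex 0 were called, against 49 by DESeq2, 380 without the filter, 3 with the replicate block and 0 to 98 when a library was left out (98 without control 2). Between tissues in KO mice 7334 were called, and 4785 to 7687 when a library was left out (4785 without KO 1). The KO effect differed between tissues for 21 genes, against 219 by DESeq2, 599 without the filter, 128 with the mouse as a replicate block and 0 to 198 when a library was left out. The cause was not tested. KO and control mice with the same number shared only that number (r of deviations -0.0353 to 0.114), and the block changed no call of a member. With that replicate block Gli1 (adjusted p = 0.209 by edgeR) and Dchs1 (adjusted p = 0.126) were not called in cerebellum. The depth limits the 3 members with few cortex counts.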
